A study of Mus musculus with 2 samples.

Results

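The 9 genes described here make, limit, sense or compete for nitric oxide: the dimethylarginine hydrolases Ddah1 and Ddah2, the nitric oxide synthases Nos1, Nos2 and Nos3, the kinase gene Prkg1, the phosphodiesterase gene Pde5a and the arginases Arg1 and Arg2. They were taken by gene symbol from a table of 24542 symbols, all 9 were found in it, and the reads of each symbol's transcripts were summed. The choice was made with the difference between the genotypes already known. That difference is therefore given for the 9 genes as a description, without a test, and tests are given only for other genes. The lists of other pathway genes were also drawn up with earlier results of these data known.

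Nitric oxide synthases make nitric oxide from arginine, and asymmetric dimethylarginine, released when methylated proteins are broken down, competes with arginine and inhibits them. Ddah1 and Ddah2 belong to the family of dimethylarginine dimethylaminohydrolases, whose enzymatic activity removes this inhibitor. Nitric oxide activates soluble guanylate cyclase, the cyclic GMP so made activates the protein kinase encoded by Prkg1, Pde5a encodes an enzyme that breaks cyclic GMP down, and arginases draw on the same arginine to make ornithine and urea.

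RNA was extracted from left ventricular muscle of male C57BL/6 mice at 7 days after permanent ligation of the proximal left anterior descending (LAD) coronary artery, which causes a myocardial infarct. Scar and border were removed, so the tissue was the remote muscle. NRK-2 KO mice, which lack the muscle nicotinamide riboside kinase encoded by Nmrk2, were compared with littermate controls. All animals of both genotypes were ligated. The sources used here do not give the age of the mice or how the knockout was made. The labels list 1 sample per genotype, and the table holds 3 numbered libraries for each, and nothing says whether these came from separate animals. The p-values below therefore reflect library-to-library spread alone, some of which may be technical.

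The libraries held from 22377348 to 33086384 counted reads, fewest in the 3 controls. Counts are given as reads and as CPM, which are reads scaled to an equal library size with TMM factors, and each mean ± SD is taken over a genotype's 3 libraries. Nmrk2 itself was counted at 308, 270 and 118 reads in control 1, 2 and 3, and at 808, 9 and 0 reads in the libraries labelled knockout 1, 2 and 3. The library labelled knockout 1 thus went against its label, and fitted differences of the 9 genes and of the called pathway genes are also given without it. The 9 cardiomyocyte markers were counted in every library, as the labelled tissue requires. Their sum was 41729 to 70747 CPM in control and 21733 to 37123 CPM in the libraries labelled knockout. The atrial myosin light chain Myl7 was at 205, 162 and 0 CPM in the controls and at 127, 1.15 and 0.219 CPM in the libraries labelled knockout. Control 1, control 2 and the library labelled knockout 1 therefore held Myl7 reads at levels that the other 3 libraries did not.

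Ddah1 was the gene of the 9 that differed most between the genotypes, at 11.2 times the control mean in the libraries labelled knockout. Ddah2 was 1.45 times as high, Pde5a 1.58 times and Prkg1 1.29 times, each with every library labelled knockout above every control library. Nos2 and Nos3 overlapped between the genotypes, Arg1 varied more within a genotype than between them, and Nos1 and Arg2 had at most 50 reads in any library. Of the 9 genes, 8 passed the filter on low counts, all but Nos1. Across all 14466 genes that passed, 3.7% differed at an adjusted p under 0.05 by edgeR's quasi-likelihood test, 2.61% higher and 1.09% lower in the libraries labelled knockout. Ddah1 and Ddah2, 2 of the 8, were past that threshold, both higher. Every library labelled knockout lay above every control library for 16.4% of the genes that passed and for 4 of the 8, and the reverse held for 14.5% and for 0 of the 8, so that 30.9% of all genes were without overlap in either direction. Because the 9 genes were chosen on this contrast, nothing is read from these counts.

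Without the library labelled knockout 1, no fitted difference of the 8 genes changed sign. The log2 fold changes were then 0.54 for Ddah2, 0.37 for Prkg1, 0.76 for Pde5a, 0.96 for Arg1 and 0.997 for Arg2, close to those with it, which are given gene by gene below together with that of Ddah1. The synthases moved more, to 0.12 for Nos2 from 0.20 and to -0.37 for Nos3 from -0.19.

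**Figure D1:**
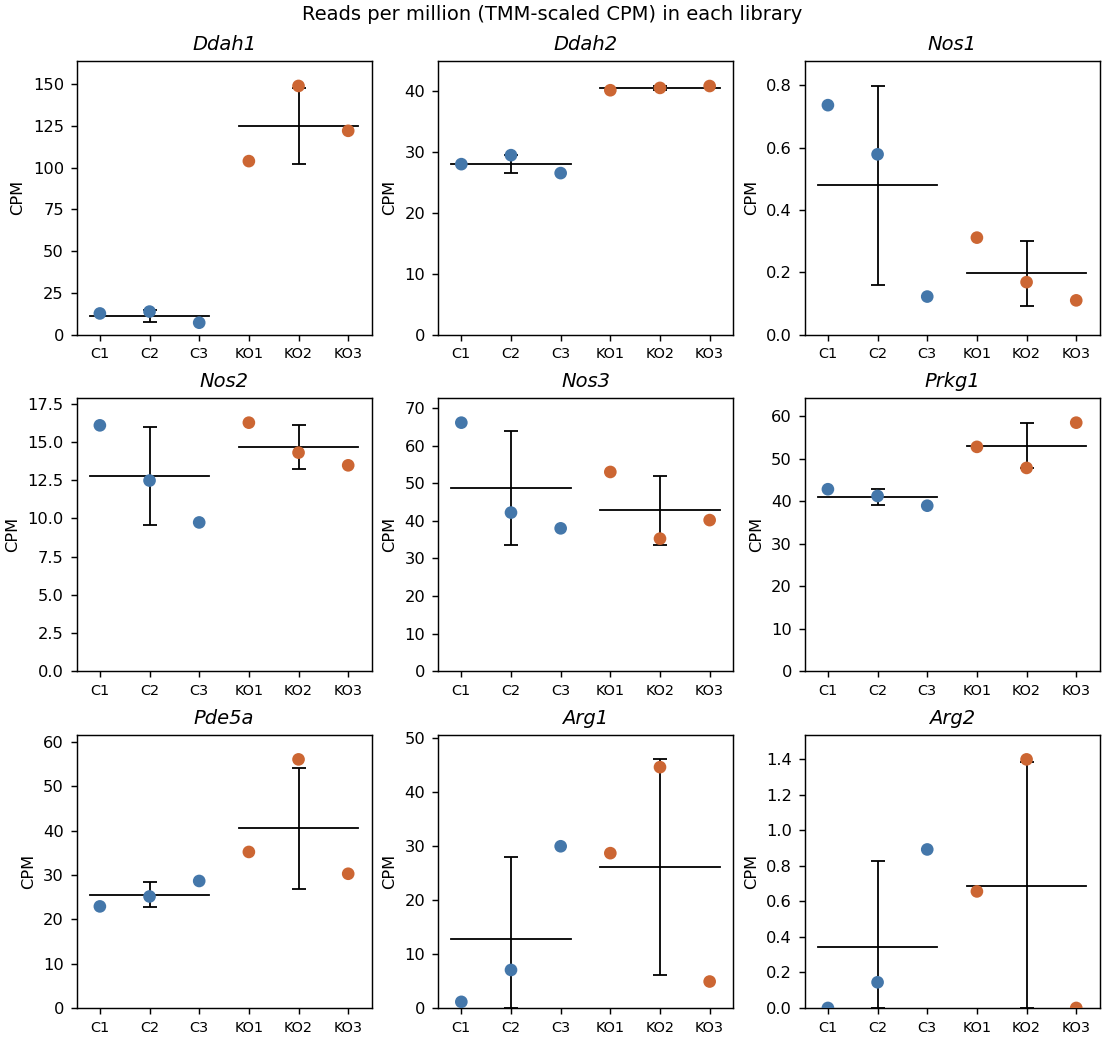
Each panel plots 1 gene, with its CPM on the vertical axis and the 6 libraries on the horizontal axis (C, control; KO, labelled knockout; line, mean of 3 libraries; bar, SD). Ddah1 lies between 7.06 and 13.7 CPM in the controls and between 104 and 149 CPM in the libraries labelled knockout, whereas the points of Nos2, Nos3 and Arg1 overlap.

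Ddah1 (gene ID 69219) spans chr3:145758692-145894277 and Ddah2 (gene ID 51793) spans chr17:35059035-35062099 in mm10, both on the plus strand. The 250 bases before each start site are printed because these are the 2 genes of the 9 with the clearest separation of genotypes and lie on different chromosomes. The sequences are from RefSeq (GRCm38.p6), plus strand, 5′ to 3′, at chr3:145758442-145758691 and chr17:35058785-35059034. Capitals mark matches to a searched motif.
Ddah1: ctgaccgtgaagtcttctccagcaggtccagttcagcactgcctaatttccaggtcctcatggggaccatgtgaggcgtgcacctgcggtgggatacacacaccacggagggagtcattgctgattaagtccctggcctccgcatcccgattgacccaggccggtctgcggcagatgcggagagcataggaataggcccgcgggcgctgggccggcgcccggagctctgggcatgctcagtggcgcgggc
Ddah2: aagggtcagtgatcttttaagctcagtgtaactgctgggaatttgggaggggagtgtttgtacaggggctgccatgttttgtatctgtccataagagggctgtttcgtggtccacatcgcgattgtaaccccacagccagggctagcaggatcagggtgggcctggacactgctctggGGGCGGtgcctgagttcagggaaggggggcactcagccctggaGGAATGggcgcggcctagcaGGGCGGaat
The motifs searched on both strands were the GC box (GGGCGG), the TATA box (TATAAA), the TEAD motif (CATTCC), the AP-1 motif (TGANTCA), the E-box (CACGTG) and the CArG box, in 32851 windows of the same length. A GC box was found in 32.7% of all windows, a TATA box in 12.4%, a TEAD motif in 12.6%, an AP-1 motif in 6.75%, an E-box in 6.02% and a CArG box in 1.47%. The Ddah1 window held 0 matches, and the Ddah2 window held 2 GC boxes and 1 TEAD motif, whose reverse complement is the run in capitals between them. The Ddah1 window was richer in CpG, with 17 against 7 in Ddah2 and a median of 6 over all windows, and its GC content was 64% against 58% and a median of 52.4%. A match is a description of letters in these windows only.

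Ddah1 was counted at 257, 285 and 174 reads in control 1, 2 and 3 and at 3007, 5318 and 3341 reads in the libraries labelled knockout 1, 2 and 3. These are 12.6, 13.7 and 7.06 CPM against 104, 149 and 122 CPM. The lowest library labelled knockout thus lay far above the highest control. The control mean was 11.1 ± 3.57 CPM and the mean of the libraries labelled knockout 125 ± 22.7 CPM (SD, n = 3 libraries each), a fitted log2 fold change of 3.49. Among the 9814 genes whose mean reached 10 CPM, the fold of Ddah1 was 11th from the highest. The difference did not rest on the library that went against its label: the log2 fold change was 3.61 without the library labelled knockout 1, and 3.25 to 3.67 over the omissions of each library in turn. With control 3 and the libraries labelled knockout 2 and 3 alone, those with little Myl7, it was 4.27.

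Ddah2 differed by less but with little spread. It was counted at 570, 611 and 653 reads in the controls and at 1161, 1446 and 1117 reads in the libraries labelled knockout. The CPM values were 28.0, 29.4 and 26.5 against 40.1, 40.5 and 40.8. The means were 28.0 ± 1.47 and 40.5 ± 0.347 CPM (SD, n = 3 libraries each), a log2 fold change of 0.53. Libraries of a genotype thus lay within a few CPM of each other, and the genotypes did not overlap.

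Ddah1 was far below Ddah2 in control and level with it in the libraries labelled knockout when both were compared per transcript length. In the deposited FPKM values, which scale reads to transcript length and library total, Ddah1 was at 3.02, 3.29 and 1.99 in the controls and Ddah2 at 18.6, 19.6 and 20.7. In the libraries labelled knockout Ddah1 was at 27.8, 42.1 and 32.5 FPKM and Ddah2 at 29.7, 31.8 and 30.2 FPKM. Ddah2 was therefore the main hydrolase transcript in every control library. The ranges of both overlapped in the libraries labelled knockout, and in that labelled knockout 1 Ddah1 was still the lower. The ratio of Ddah1 to Ddah2 FPKM was 0.142 ± 0.0399 in control and 1.11 ± 0.198 in the libraries labelled knockout (SD, n = 3 libraries each), and Ddah1 made up 12.4% ± 3.12 and 52.4% ± 4.37 of the sum of both. That sum was 22.4 ± 0.672 FPKM in control and 64.7 ± 8.40 FPKM in the libraries labelled knockout. By mean FPKM over a genotype, Ddah1 lay above 28.3% of the tested genes in control and above 86.7% in the libraries labelled knockout, and Ddah2 above 77.3% and 85.2%.

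**Figure D2:**
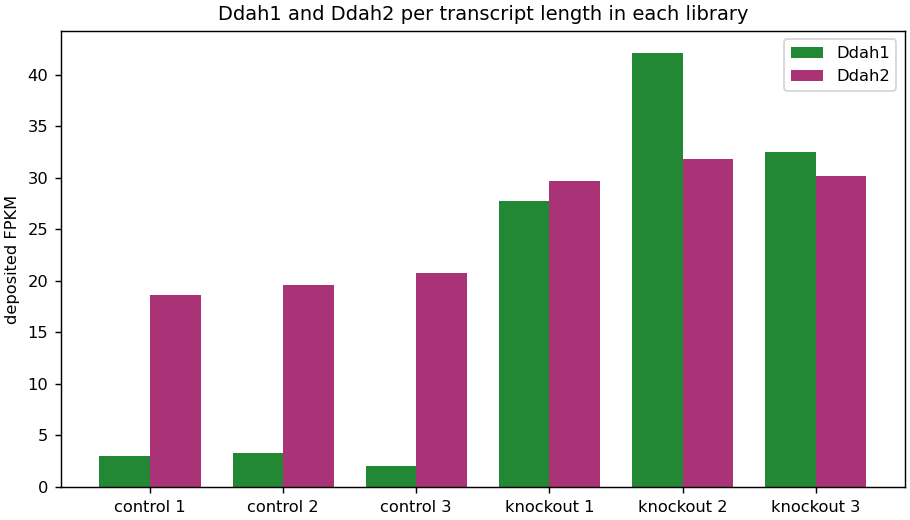
Bars give the deposited FPKM of Ddah1 (green) and Ddah2 (purple) on the vertical axis in each of the 6 libraries (knockout, labelled knockout). Ddah1 is the shorter bar in each control, at 1.99 to 3.29 FPKM, and reaches 27.8 to 42.1 FPKM in the libraries labelled knockout.

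Sums of the fibroblast, cardiomyocyte and atrial markers also differed between the genotypes without overlap. The 8 fibroblast markers summed to 6391 to 17776 CPM in control and to 23066 to 34866 CPM in the libraries labelled knockout. For 5 of the 8 no library overlapped, all higher, beside 16.4% of all genes tested. By mean, the collagen genes Col1a1, Col1a2 and Col3a1 were the largest entries, and Col3a1 was at 6918 and 14306 CPM. Tcf21 and Lum were also higher without overlap, at 2.65 and 1.92 times their control means. Pdgfra, Dcn and Dpt overlapped, at 1.19, 1.09 and 0.944 times theirs. By its largest entries, the sum reflects mainly its collagen genes. The cardiomyocyte sum, given above, was lower without overlap, as were 6 of its 9 genes, beside 14.5% of all genes tested. The 5 atrial markers summed to 110 to 929 CPM in control and 2357 to 3025 CPM in the libraries labelled knockout. Nppa alone was at 374 ± 239 and 2597 ± 370 CPM of these, and only Nppa was higher without overlap. Myl7, Myl4 and Sln overlapped, at 0.350, 0.848 and 0.579 times their control means, and Bmp10 was at 0 reads. The difference in the atrial sum was thus that of Nppa. Log2 levels of Ddah1 followed the atrial, fibroblast and cardiomyocyte sums at r = 0.868, 0.715 and -0.75 (Pearson, n = 6 libraries). Within the controls, the fibroblast sum was lowest in control 1 and Ddah1 in control 3. None of these fibroblast and cardiomyocyte markers passed edgeR's quasi-likelihood test at an adjusted p under 0.05, and all 17 were counted in every library. The part of the fibroblast, cardiomyocyte and atrial sums in the Ddah1 and Ddah2 values was not tested. In tissue RNA, fewer cells of a type and less RNA per cell cannot be told apart. The 10 endothelial markers, counted in every library, summed to 1392 to 1717 CPM in control and 1402 to 1757 CPM in the libraries labelled knockout, so their ranges overlapped almost wholly.

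The genes beside the hydrolases were tested. Cyr61, which encodes a matricellular protein and whose nearer end lies 108707 bases before Ddah1, was at 60.3 ± 19.8 CPM in control and 143 ± 20.5 CPM in the libraries labelled knockout (log2 fold change 1.25 with an SE of 0.26 and an adjusted p = 0.0544 in edgeR's quasi-likelihood test). Bcl10, an adaptor of immune receptor signalling 29985 bases after Ddah1, was at 37.9 ± 3.88 and 43.8 ± 2.73 CPM (log2 fold change 0.21, adjusted p = 0.328 in edgeR's quasi-likelihood test). Clic1, an intracellular chloride channel gene 316 bases before Ddah2, was at 58.7 ± 12.3 and 94.2 ± 18.4 CPM (log2 fold change 0.68, adjusted p = 0.104 in edgeR's quasi-likelihood test). None of these neighbours passed the threshold.

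Among 11104 other genes whose mean reached 5 CPM, the 3 whose log2(CPM + 1) followed Ddah1 most closely over the 6 libraries were Srpx2 (Pearson r = 0.9997), Arhgef40 (r = 0.999) and Gpx3 (r = 0.9986), the last encoding a secreted glutathione peroxidase. Srpx2 was at 22.0, 22.9 and 15.7 CPM in the controls and 92.2, 117 and 98.2 CPM in the libraries labelled knockout, the same order of libraries as Ddah1. For Ddah2 they were Nbea (r = 0.9994), Itgb1 (r = 0.9988), the beta-1 integrin, and Dcbld2 (r = 0.9983). These values describe 6 libraries that fall into 2 genotypes, and 326 genes reached r = 0.95 with Ddah1 and 278 with Ddah2.

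The synthases did not separate the genotypes. Nos3, the endothelial synthase gene (gene ID 18127, chr5:24364819-24384474), had the most reads of the 3, at 1348, 876 and 937 in the controls and 1535, 1260 and 1101 in the libraries labelled knockout. In CPM these were 66.1, 42.2 and 38.01 against 53.0, 35.3 and 40.2. Control 1 was the highest of all 6 libraries, the library labelled knockout 1 the next, and the other 4 lay close together across genotypes. The means were 48.8 ± 15.2 and 42.8 ± 9.16 CPM (SD, n = 3 libraries each). The fitted log2 fold change was -0.19, and it was 0.10 without control 1, so that 1 library set its sign. As a share of the summed CPM of the 10 endothelial markers, Nos3 was 3.13% ± 0.625 in control and 2.78% ± 0.291 in the libraries labelled knockout. Nos3 overlaps Atg9b on the opposite strand. Whether strand was used in counting is not known from the sources at hand, and Atg9b was counted at only 6 to 40 reads. The genes most alike to Nos3 were Smtn (r = 0.9865), a smooth muscle cytoskeleton gene that is also on the smooth muscle list, Hspa12b (r = 0.9839) and Chid1 (r = 0.981), and 18 genes reached r = 0.95.

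Nos2, the inducible synthase gene (gene ID 18126, chr11:78920787-78960226), was at 16.1, 12.5 and 9.74 CPM in the controls and 16.3, 14.3 and 13.5 CPM in the libraries labelled knockout. The 2 libraries numbered 1 were nearly level and the ranges overlapped, with means of 12.8 ± 3.19 and 14.7 ± 1.43 CPM (SD, n = 3 libraries each) and a log2 fold change of 0.20. Its reads were split between transcripts unevenly: transcript variant 3 held all reads in control 1, control 3 and the library labelled knockout 3, whereas variant 1 held 34.0% in control 2, 7.86% in the library labelled knockout 1 and 61.6% in that labelled knockout 2. The genes most alike to Nos2 were Zfyve19 (r = 0.995), Tnfrsf12a (r = 0.9915), the receptor of the cytokine TWEAK, and Cdc42ep1 (r = 0.9835).

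Nos1, the neuronal synthase gene (gene ID 18125, chr5:117866839-117958840), was counted at 15, 12 and 3 reads in the controls and at 9, 6 and 3 reads in the libraries labelled knockout. It lay from 0.110 to 0.736 CPM, and the lowest value in each genotype equalled the 3 reads that a count of 0 allows, so a difference was not detectable at this depth. Per transcript length, Nos3 made up 77.7% ± 1.48 of the summed FPKM of the 3 synthases in control and 73.0% ± 2.28 in the libraries labelled knockout. Nos3 was thus the main synthase transcript in both genotypes.

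Prkg1, the cyclic GMP-dependent kinase gene (gene ID 19091, chr19:30564487-31765033, minus strand), was counted at 872, 855 and 959 reads in the controls and at 1527, 1707 and 1600 reads in the libraries labelled knockout. In CPM these were 42.8, 41.2 and 38.9 against 52.7, 47.8 and 58.4, with means of 41.0 ± 1.95 and 53.0 ± 5.32 CPM (SD, n = 3 libraries each) and a log2 fold change of 0.37. The genotypes did not overlap. The table holds 2 RefSeq transcripts of Prkg1 with different first exons. They encode different amino-terminal ends of the kinase, and their reads were divided unevenly between libraries. Variant 2 held 1.72%, 34.3% and 36.5% of the gene's reads in the controls and 29.1%, 27.0% and 61.8% in the libraries labelled knockout. When only the variant with the most reads was used, the log2 fold change was 0.02. The difference in Prkg1 thus lay mainly in reads assigned to variant 2. That variant was at 0.0949, 1.84 and 2.17 FPKM in the controls and 2.22, 1.98 and 5.21 FPKM in the libraries labelled knockout. Neither variant alone separated the genotypes in FPKM, whereas their sum did. The 8 smooth muscle markers, all counted in every library, summed to 422 to 753 CPM in control and 409 to 658 CPM in the libraries labelled knockout, and so overlapped. Within the list, Myh11, Myocd and Lmod1 were at 0.555, 0.564 and 0.526 times their control means, and Tagln and Cnn1 at 1.54 and 1.88 times. The sum thus does not show that each marker was level. Prkg1 overlaps Cstf2t, a gene on the opposite strand whose reads could be mixed with those of Prkg1 if counting ignored strand. Cstf2t was counted at 1619 to 2354 reads, more than Prkg1 in every library.

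**Figure D3:**
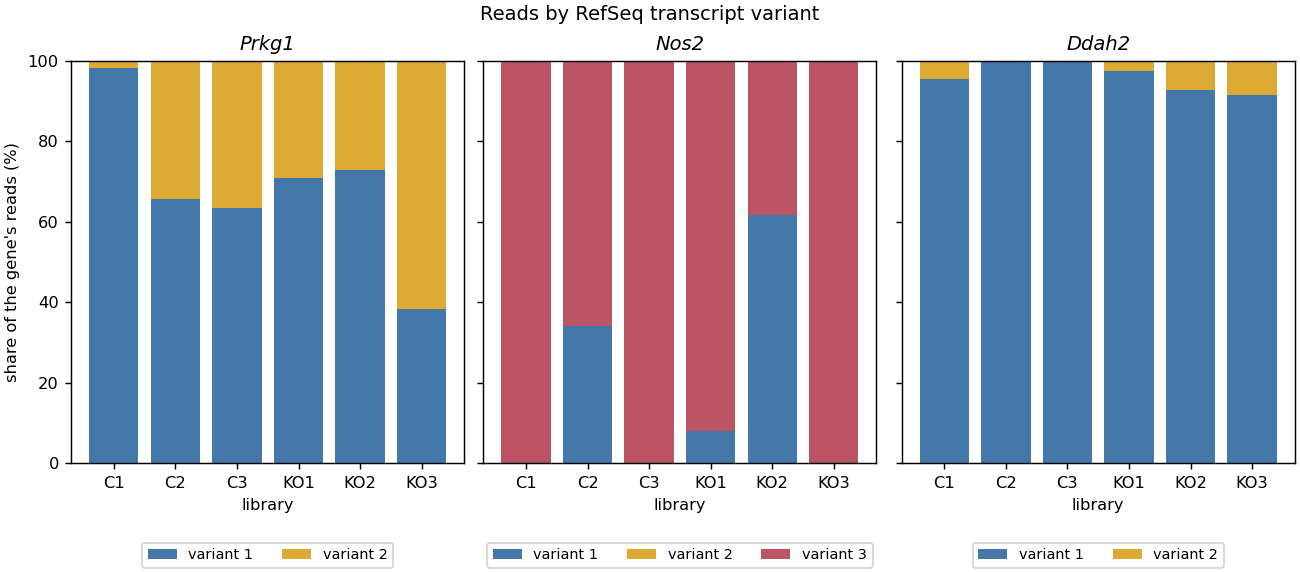
Stacked bars give the share (%) of each gene's reads that was assigned to each RefSeq transcript variant in each of the 6 libraries (C, control; KO, labelled knockout). Prkg1 variant 2 ranges from 1.72% in control 1 to 61.8% in the library labelled knockout 3, and Nos2 variant 1 from 0% to 61.6%, with no division by genotype.

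The 2 start sites of Prkg1 are far apart, and the windows before them are shown because the read shares of their transcripts differed so much between libraries. The sequences are from RefSeq (GRCm38.p6), given 5′ to 3′ on the minus strand, at chr19:31765034-31765283 for variant 1 and chr19:31664371-31664620 for variant 2. Capitals mark a GC box on either strand.
Prkg1 variant 1: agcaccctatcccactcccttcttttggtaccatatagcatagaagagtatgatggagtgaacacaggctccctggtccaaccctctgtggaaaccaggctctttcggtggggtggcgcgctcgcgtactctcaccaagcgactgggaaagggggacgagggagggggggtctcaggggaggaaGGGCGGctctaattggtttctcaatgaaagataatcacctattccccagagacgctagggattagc
Prkg1 variant 2: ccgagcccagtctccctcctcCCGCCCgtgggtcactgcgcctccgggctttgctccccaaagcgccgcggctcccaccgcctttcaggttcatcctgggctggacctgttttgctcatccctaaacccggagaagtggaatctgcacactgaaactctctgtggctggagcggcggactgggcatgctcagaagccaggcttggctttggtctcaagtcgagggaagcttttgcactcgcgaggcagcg
Each window held 1 GC box and no other searched motif. The variant 2 window held 16 CpG and 62.8% GC, and the variant 1 window 9 CpG and 55.2% GC. The genes most alike to Prkg1 over the 6 libraries were Usp31 (r = 0.9931), Add1 (r = 0.9905) and Slc25a40 (r = 0.974).

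Pde5a (gene ID 242202, chr3:122729158-122859374) was counted at 467, 522 and 706 reads in the controls and 1019, 2003 and 829 reads in the libraries labelled knockout. Its CPM values were 22.9, 25.1 and 28.6 against 35.2, 56.1 and 30.3. The library labelled knockout 2 stood well above the others, and that labelled knockout 3 lay just above the highest control. The means were 25.6 ± 2.89 and 40.5 ± 13.7 CPM (SD, n = 3 libraries each), and the log2 fold change of 0.66 was 0.36 without the library labelled knockout 2. That library also had the highest fibroblast sum, 34866 CPM, the highest macrophage sum, 3079 CPM, and the lowest cardiomyocyte sum, 21733 CPM. Across all libraries of both genotypes, log2 levels of Pde5a followed the cardiomyocyte sum inversely (Pearson r = -0.947, n = 6 libraries) and the fibroblast and macrophage sums at r = 0.807 and 0.794, and their part in the Pde5a values was not tested. The genes most alike to Pde5a were Olfm1 (r = 0.9878), Traf4 (r = 0.9866) and Atp13a1 (r = 0.9844), each highest in the same library.

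Arg1, the arginase gene of alternatively activated macrophages and of liver (gene ID 11846, chr10:24915207-24927470), varied widely among libraries of a genotype. It was counted at 23, 146 and 738 reads in the controls and 830, 1593 and 134 reads in the libraries labelled knockout, or 1.13, 7.03 and 29.9 CPM against 28.7, 44.6 and 4.89 CPM. Control 3 and the libraries labelled knockout 1 and 2 were high, and the other 3 libraries were low, so high and low libraries were found in both genotypes. The means were 12.7 ± 15.2 and 26.1 ± 19.98 CPM (SD, n = 3 libraries each). The log2 fold change of 1.03 ranged from 0.40 to 2.67 over the omissions of each library, and it was -0.27 with control 3 and the libraries labelled knockout 2 and 3 alone.

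Neutrophil markers were high in the same libraries as Arg1, and macrophage markers followed it less closely. The 5 neutrophil markers, 4 of them counted in every library, summed to 5.74, 13.8 and 100.5 CPM in the controls and 35.8, 72.5 and 12.7 CPM in the libraries labelled knockout, high in the same 3 libraries as Arg1. The 10 macrophage markers, all counted in every library, summed to 877, 1229 and 2623 CPM and 2277, 3079 and 2016 CPM. In this sum the library labelled knockout 3, low in Arg1, was near that labelled knockout 1, high in Arg1. Of the 10 macrophage markers, only Cx3cr1, the fractalkine receptor, passed edgeR's quasi-likelihood test, and it was higher in the libraries labelled knockout. Of the 5 hepatocyte markers, Alb, Apoa1 and Otc were at 0 reads in all 6 libraries, and Ttr and Cps1 had from 0 to 12 reads in a library. The part of the leukocyte markers in the Arg1 values was not tested. The genes most alike to Arg1 were Tbl2 (r = 0.9958), Mmp12 (r = 0.9933), the macrophage elastase, and Pnp (r = 0.9927). Mmp12 was at 0.932, 10.1 and 64.5 CPM in the controls and 94.8, 118 and 9.24 CPM in the libraries labelled knockout.

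**Figure D4:**
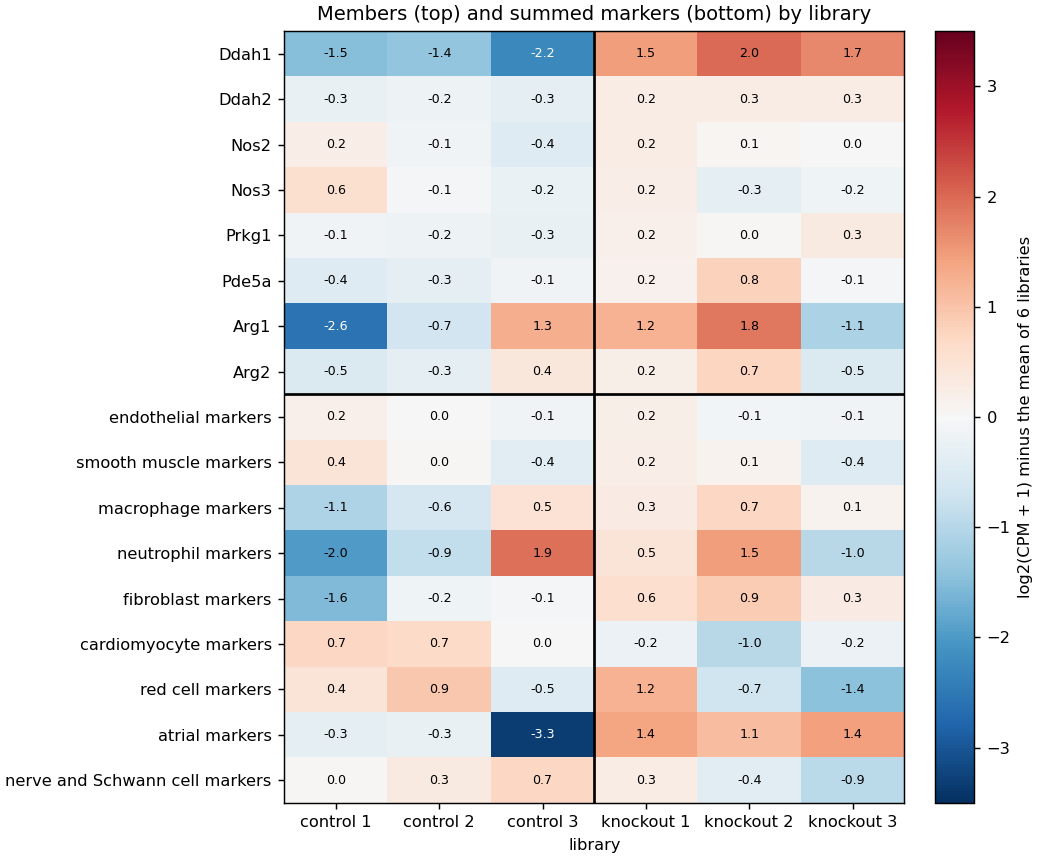
Rows are the 8 genes that passed the filter and the summed marker lists, columns are the 6 libraries (knockout, labelled knockout), and colour and number give log2(CPM + 1) minus the row's mean over the 6 libraries. Ddah1, Ddah2, Prkg1 and the fibroblast and atrial sums change sign at the line between the genotypes. Arg1, Arg2 and the neutrophil sum are instead above their mean in control 3 and in the libraries labelled knockout 1 and 2.

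Arg2, the mitochondrial arginase gene (gene ID 11847, chr12:79130788-79156301), was counted at 0, 3 and 22 reads in the controls and at 19, 50 and 0 reads in the libraries labelled knockout. Control 3 and the libraries labelled knockout 1 and 2 were again the high ones. The fitted log2 fold change of 0.96 became 3.17 without control 3 and -0.09 without the library labelled knockout 2, so it rested on single libraries. Arg2 overlaps Vti1b, which lies on the opposite strand and was counted at 1337 to 1942 reads.

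By mean deposited FPKM, the control order from the highest was Ddah2, Nos3, Arg1, Prkg1, Pde5a, Nos2, Ddah1, Arg2 and Nos1. Neighbours in this order whose libraries did not overlap were Ddah2 and Nos3, Prkg1 and Pde5a, and Ddah1 and Arg2. In the libraries labelled knockout the order was Ddah1, Ddah2, Arg1, Nos3, Prkg1, Pde5a, Nos2, Arg2 and Nos1, and only Nos3 and Prkg1, Pde5a and Nos2, and Nos2 and Arg2 did not overlap. Nos3 was at 11.1 ± 2.87 FPKM in control and 10.6 ± 2.03 FPKM in the libraries labelled knockout, Prkg1 at 5.58 ± 0.300 and 7.76 ± 0.583 FPKM, Pde5a at 3.64 ± 0.764 and 6.18 ± 2.32 FPKM, and Nos2 at 3.11 ± 0.596 and 3.84 ± 0.367 FPKM (SD, n = 3 libraries each). The change in order was thus mainly that of Ddah1, from below Nos2 to the first place.

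Other genes of nitric oxide signalling and arginine use were tested in 9 lists, which held 81 genes, 76 of them past the filter. These lists, too, were chosen with earlier results of these data known, so the counts below are not free of that choice. Of the 76, 5 rose and 0 fell in the libraries labelled knockout by edgeR's quasi-likelihood test at an adjusted p under 0.05, where 2.61% of all genes tested rose and 1.09% fell. At an unadjusted p under 0.05, 18 of the 76 were higher and 13 lower, beside 12.3% higher and 13.5% lower over all genes. DESeq2 called 12 higher and 8 lower, beside 7.75% higher and 9.23% lower over all genes that it tested. The median log2 fold change of the 76 was -0.04, against 0.01 over all genes tested, with 35 genes fitted higher and 41 lower.

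The list of soluble guanylate cyclase, the receptor of nitric oxide, held 3 tested genes, of which 2 rose and 0 fell. Gucy1b3, the beta subunit, was at 38.1, 35.9 and 28.2 CPM in the controls and 65.2, 66.3 and 75.1 CPM in the libraries labelled knockout (log2 fold change 1.02 with an SE of 0.15 and an adjusted p = 0.0246 in edgeR's quasi-likelihood test). Gucy1a3, an alpha subunit that pairs with it, was at 69.3, 97.8 and 96.0 CPM against 150.4, 180 and 201 CPM (log2 fold change 1.01 with an SE of 0.18 and an adjusted p = 0.0394 in edgeR's quasi-likelihood test). Both subunits were at 2.02 times their control means, with no overlap. The fibroblast marker sum was higher without overlap in the same libraries, at 6391 to 17776 CPM in control against 23066 to 34866 CPM. Its largest entries by mean were the collagen genes Col1a1, Col1a2 and Col3a1. These genes, Tcf21 and Lum were higher without overlap, whereas Pdgfra, Dcn and Dpt overlapped between the genotypes. The part of this sum in these and the other pathway calls below was not tested. The other alpha subunit gene, Gucy1a2, was at 43.9 ± 3.19 and 54.4 ± 5.57 CPM (log2 fold change 0.31, adjusted p = 0.174 in edgeR's quasi-likelihood test), and Gucy1b2 did not pass the filter.

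Among 8 other phosphodiesterase genes, 1 rose and 0 fell, with a median log2 fold change of -0.02. Pde1a, a calcium- and calmodulin-activated phosphodiesterase, was at 14.6, 21.0 and 20.1 CPM in the controls and 31.4, 31.1 and 35.5 CPM in the libraries labelled knockout (log2 fold change 0.81 with an SE of 0.17 and an adjusted p = 0.0498 in edgeR's quasi-likelihood test). That p was just under the threshold, and the call was lost in 12 of 15 alternative settings, among them DESeq2's size factors (adjusted p = 0.0588), library totals (0.0523), no filter (0.0574) and limma (0.1175), with log2 fold changes from 0.67 to 0.92 over all 15. Its relative Pde1b was at 6.14 ± 2.53 and 13.3 ± 3.84 CPM and did not pass (log2 fold change 1.12, adjusted p = 0.105 in edgeR's quasi-likelihood test). Of 9 effectors of cyclic GMP, 0 passed at the adjusted threshold, 1 was higher and 1 lower at an unadjusted p under 0.05, and DESeq2 called 1 higher and 1 lower. Kcnma1, the pore subunit of a calcium-activated potassium channel, was at 2.17 ± 0.597 CPM in control and 9.19 ± 4.61 CPM in the libraries labelled knockout (log2 fold change 2.08 with an SE of 0.43 and an adjusted p = 0.0523 in edgeR's quasi-likelihood test). Its fold was the largest of the list but its spread over the libraries labelled knockout was wide, and without the library labelled knockout 1 its adjusted p was 0.136 in the same test. Hspb6, a small heat shock protein of muscle, was at 205 ± 79.5 and 127 ± 41.4 CPM (adjusted p = 0.287 in edgeR's quasi-likelihood test).

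On the side of synthesis, 1 of 13 genes for partners of the synthases rose and 0 fell. Dynll1, a dynein light chain known to bind and inhibit the neuronal synthase, was at 52.6, 47.1 and 52.7 CPM in the controls and 98.9, 98.2 and 82.7 CPM in the libraries labelled knockout (log2 fold change 0.88 with an SE of 0.12 and an adjusted p = 0.0217 in edgeR's quasi-likelihood test). Cav1, the caveolin that binds the endothelial synthase, was at 509 ± 66.7 and 452 ± 94.0 CPM (log2 fold change -0.17, adjusted p = 0.619 in edgeR's quasi-likelihood test). Cav3, the caveolin of muscle cells, was at 53.9 ± 13.6 and 30.3 ± 7.999 CPM and did not pass (adjusted p = 0.109 in edgeR's quasi-likelihood test), beside the lower cardiomyocyte marker sum, whose part was not tested. Of 8 genes for the cofactor tetrahydrobiopterin, 0 passed the adjusted threshold, 0 were higher and 3 lower at an unadjusted p under 0.05, and DESeq2 called 0 higher and 2 lower. Pts, which encodes a middle step of the cofactor's synthesis, was at 38.7 ± 6.46 CPM in control and 23.0 ± 3.19 CPM in the libraries labelled knockout (adjusted p = 0.0627 in edgeR's quasi-likelihood test), and Spr, for the last step, was at 53.0 ± 12.8 and 32.3 ± 3.89 CPM (adjusted p = 0.0924 in edgeR's quasi-likelihood test).

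Arginine supply held 6 tested genes, and 0 passed at the adjusted threshold, with 2 higher and 0 lower at an unadjusted p under 0.05 and 1 higher by DESeq2. Slc7a2, a transporter that brings arginine into cells, was at 25.6 ± 8.81 CPM in control and 67.2 ± 20.3 CPM in the libraries labelled knockout (log2 fold change 1.39 with an SE of 0.30 and an adjusted p = 0.0597 in edgeR's quasi-likelihood test). Without the library labelled knockout 1 its adjusted p was 0.131 in the same test. Slc7a7, which encodes a light subunit of another transporter of basic amino acids, was at 7.05 ± 2.02 and 12.0 ± 1.74 CPM (adjusted p = 0.121 in edgeR's quasi-likelihood test). Among 8 tested genes that methylate arginine or transaminate dimethylarginine, 0 passed, 1 was higher and 1 lower at an unadjusted p under 0.05, and DESeq2 called 1 higher. That list's higher gene, the methyltransferase gene Prmt2, was at 9.74 ± 2.42 and 17.4 ± 0.948 CPM (log2 fold change 0.83, adjusted p = 0.0760 in edgeR's quasi-likelihood test), and this difference was -0.015 when only its most-read transcript was used. Prmt7, another methyltransferase gene, was at 52.4 ± 12.0 and 35.7 ± 4.91 CPM (adjusted p = 0.146 in edgeR's quasi-likelihood test). Agxt2, whose enzyme removes asymmetric dimethylarginine by the other route, was at 0 reads in all 6 libraries. Agxt2 and Prmt8, a methyltransferase gene, were left out by the filter.

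Ornithine and polyamine use, downstream of the arginases, held 13 tested genes, of which 0 passed at the adjusted threshold, 4 were higher and 2 lower at an unadjusted p under 0.05, and DESeq2 called 2 higher and 1 lower. Its median log2 fold change was 0.31. Azin2, which encodes an antizyme inhibitor, was at 3.70 ± 1.68 CPM in control and 8.27 ± 3.34 CPM in the libraries labelled knockout (adjusted p = 0.163 in edgeR's quasi-likelihood test). Sat1, for the acetyltransferase that starts polyamine breakdown, was at 41.1 ± 11.9 and 69.0 ± 13.8 CPM (adjusted p = 0.111 in edgeR's quasi-likelihood test). Of 8 genes that scavenge nitric oxide or reduce nitrosothiols, 1 rose and 0 fell. Cyb5r3, a reductase that keeps the haem iron of globins and of guanylate cyclase reduced, was at 81.8, 79.0 and 76.8 CPM in the controls and 137, 155 and 172 CPM in the libraries labelled knockout (log2 fold change 0.97 with an SE of 0.12 and an adjusted p = 0.0173 in edgeR's quasi-likelihood test). Mb, the myoglobin of muscle, was at 9739 ± 2884 and 5009 ± 1484 CPM (adjusted p = 0.148 in edgeR's quasi-likelihood test), beside the lower cardiomyocyte marker sum given above, whose part was not tested.

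**Figure D5:**
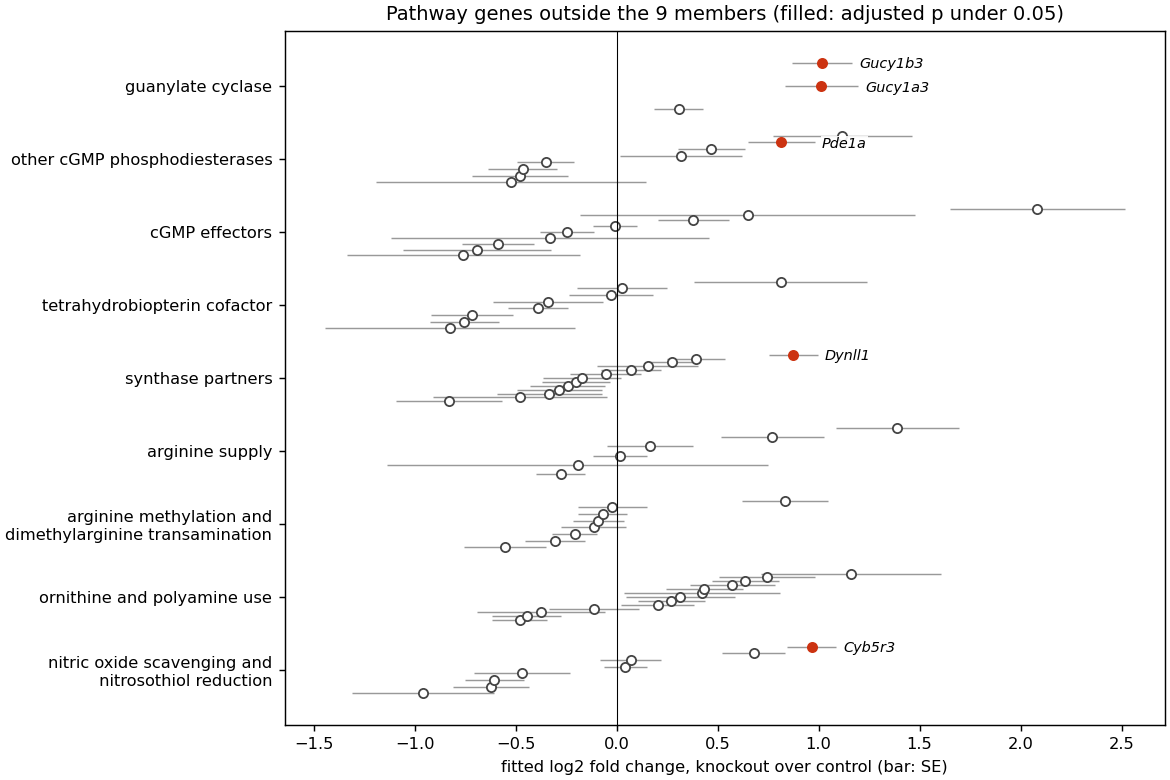
Points give the fitted log2 fold change, libraries labelled knockout over control, of the 76 tested pathway genes on the horizontal axis, grouped by list on the vertical axis, with bars for the SE. The 5 filled and named points passed the adjusted threshold, all lie between 0.81 and 1.02, and the remaining genes spread to both sides of 0.

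Under most omissions of a single library, calls among these 5 genes were lost, although their direction was kept. Each omission left fewer libraries to test, and calls over all genes changed as well. Without the library labelled knockout 1, only Cyb5r3 kept an adjusted p under 0.05 (0.0464 in edgeR's quasi-likelihood test), and the log2 fold changes were 1.12 for Gucy1a3, 1.05 for Gucy1b3, 0.83 for Dynll1 and 0.84 for Pde1a. Without control 1, control 2 or the library labelled knockout 2 or 3 the count of pathway genes called was 0. Without control 3 it was 26, of which 13 rose and 13 fell. Calls over all genes, 535 with every library, were 47, 25 and 3628 without control 1, 2 and 3. They were 88, 47 and 3 without the library labelled knockout 1, 2 and 3.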

How the data were processed

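A stranded kit was used on total RNA, per the labels' protocols. The build mm10, HISAT2 and Bowtie2 are named per the submitters' processing notes, without versions. The counting program and its use of strand are not stated in the labels or headers. The deposited table gives each RefSeq transcript a read count, an FPKM value and, as another property, its length, per the file headers. It holds 36780 transcripts. The deposited FPKM values were 0.962 to 0.988 times FPKM recomputed from count, length and library total (transcripts with at least 50 reads). Columns beginning with C were assigned to the control sample and those beginning with KO to the knockout sample.

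Counts were summed per symbol and tested over all 14466 genes passing filterByExpr with edgeR 4.0.16 (quasi-likelihood test, TMM, Benjamini-Hochberg) in R 4.3.3. On simulated counts of 14466 genes, it called 33 of 100 genes changed 2-fold, 97 of 100 changed 4-fold and 9 unchanged genes. A count of 0 allows up to 3 reads, which covers counting error only. Library pairs within a genotype differed beyond counting error (median chi-square 3.78 to 17.3 over genes, against 0.455 for repeat runs). The 9 genes and all lists were chosen with earlier results of these data known. Named by rule were the 9 genes, each list's called genes, up to 2 genes of each list that reached 5 CPM on average and differed most in either direction, and 3 most alike genes per member. Neighbouring and overlapping genes, Myl7, Cx3cr1, Gucy1a2, Gucy1b2, Cav1, Prmt8 and Agxt2 were chosen after their values were seen. Alternatives were other scalings and filters, DESeq2 1.42.0, limma 3.58.1 on log2(FPKM + 1), the most-read transcript, a block for the library number and omission of each library. Promoter windows in the RefSeq table (GRCm38.p6) matched 5 of the 9 genes.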

Additional observations from a re-analysis of the deposited data

How the results depend on the processing

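Against 535 of all genes and 5 pathway genes called in the main analysis, DESeq2's Wald test called 2445 and 20. With limma on log2(FPKM + 1), 864 and 7 were called, and of the 7 pathway genes 5 rose and 2 fell. The most-read transcript of each gene gave 172 and 2. With a replicate block for the library number, 6 and 0 were called (22 pathway genes at an unadjusted p under 0.05). The labels carry no such numbers, and same-numbered libraries deviated with correlations of 0.307, -0.33 and -0.352, which shows no pairing by number. With 3 libraries a genotype, these correlations cannot exclude one. Leaving out each library in turn gave 3 to 3628 calls over all genes, the most without control 3 and the fewest without the library labelled knockout 3, and 0 to 26 pathway calls. Without the library labelled knockout 1, the counts were 88 and 1. A comparison of control 3 with the libraries labelled knockout 2 and 3 alone, chosen after seeing the data, gave 0 calls in edgeR over all genes (1341 at an unadjusted p under 0.05) and 0 in the pathway (10 unadjusted), and a log2 fold change of 4.27 for Ddah1. In it the lone control is assumed to vary like the libraries labelled knockout. Recomputed with TMM scaling, control FPKM was 20.7 for Ddah2 and 5.89 for Prkg1. By the most-read transcript the log2 fold change of Prmt2 was -0.015. For these the cause was not tested. DESeq2's size factors, library totals, no filter and a filter of 1 CPM in 3 libraries gave 423 to 633 calls over all genes and 4 to 6 in the pathway. Scaling to library totals alone moved the median log2 fold change of all genes to 0.11. With 3 libraries a genotype, the simulated recovery of 33 of 100 changes of 2-fold limits what the pathway test could call. That recovery is for genes of at least 10 CPM and does not cover pathway genes below it, such as Kcnma1 and Azin2.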
